A study of Mus musculus with 10 samples.

Results

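RNA levels were followed for 34 imprinted genes, taken as a list of names by textbook knowledge of the mouse and grouped into 16 imprinted clusters or single loci. All 34 were matched by Ensembl gene ID among the 45513 gene IDs of the LSK table, and 32 among the 38924 of the GMP table. Snrpn and Kcnq1ot1 were matched in LSK only. RNA came from 10 libraries of bone marrow cells sorted from C57BL/6 mice aged 12 months. LSK cells, sorted as lineage-negative, Sca1+ and cKit+, include the blood stem cells and early multipotent progenitors. GMP are granulocyte-macrophage progenitors, sorted as lineage-negative, Sca1-, cKit+, CD34+ and FcgR+ cells. KO mice carried Dnmt3a f/f and Mx1-Cre, and CTRL mice carried Dnmt3a f/f without Cre. All groups thus carried floxed Dnmt3a, and poly(I:C) was given by 5 injections according to the treatment label shared by all libraries. The Cre transgene was present in KO mice only, so its own effect and that of the Dnmt3a deletion cannot be told apart. The interferon-responsive Mx1 promoter is active after poly(I:C) in blood-forming cells and also in other tissues. There were 3 KO and 2 CTRL libraries of each population, and a name such as KO-178 joins the genotype to the number from the title. In GMP these are CTRL-346 and CTRL-350 beside KO-178, KO-179 and KO-352. In LSK they are CTRL-1326 and CTRL-1330 beside KO-1327, KO-1333 and KO-1334. Values listed for a group follow its library numbers upwards. The labels do not state that each library is a separate animal, and p-values then reflect only how these libraries vary, which may be technical.

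An imprinted gene is transcribed mainly from the copy inherited from 1 parent. The choice is set by DNA methylation that is laid down in the germ line by de novo methyltransferases, among them DNMT3A, and is afterwards copied at each cell division by the maintenance enzyme DNMT1. Imprinted genes lie in clusters in which long non-coding RNAs, such as H19, Airn and Kcnq1ot1, share control regions with protein-coding genes for growth, and several of these genes (H19, Igf2, Dlk1, Meg3, Ndn, Peg3) are known for their expression in blood stem cells. Counts per gene do not separate the parental copies, so allele of origin was not measured here, and a gene is called maternal or paternal after its textbook expressed copy.

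The promoter windows below, from 250 bases before to 50 bases after a transcript start, are shown for Ppp1r9a, the member on which the knockout comparison turned, and for Ndn and Meg3, which had among the largest differences between populations. They are from RefSeq on GRCm38.p6, are written 5′ to 3′ on the gene's strand, and have each CpG dinucleotide, the substrate of DNA methyltransferases, in capitals. The table holds a second window for Ppp1r9a and for Meg3, and the one with more CpG is shown. The windows lie at chr6:4903061-4903360 (+ strand) for Ppp1r9a, at chr7:62348027-62348326 (+ strand) for Ndn and at chr12:109540746-109541045 (+ strand) for Meg3.
Ppp1r9a: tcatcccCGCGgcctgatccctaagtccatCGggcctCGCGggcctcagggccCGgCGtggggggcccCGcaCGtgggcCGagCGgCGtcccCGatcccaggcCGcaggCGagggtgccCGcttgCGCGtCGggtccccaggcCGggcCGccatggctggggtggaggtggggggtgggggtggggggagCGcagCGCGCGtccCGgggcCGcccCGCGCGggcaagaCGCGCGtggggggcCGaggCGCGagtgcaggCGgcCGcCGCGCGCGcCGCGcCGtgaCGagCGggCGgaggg
Ndn: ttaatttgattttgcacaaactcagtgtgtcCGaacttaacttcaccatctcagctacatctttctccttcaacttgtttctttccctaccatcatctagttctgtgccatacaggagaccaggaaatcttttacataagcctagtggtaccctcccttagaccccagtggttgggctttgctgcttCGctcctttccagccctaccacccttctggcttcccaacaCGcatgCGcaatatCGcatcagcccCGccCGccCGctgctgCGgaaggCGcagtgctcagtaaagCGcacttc
Meg3: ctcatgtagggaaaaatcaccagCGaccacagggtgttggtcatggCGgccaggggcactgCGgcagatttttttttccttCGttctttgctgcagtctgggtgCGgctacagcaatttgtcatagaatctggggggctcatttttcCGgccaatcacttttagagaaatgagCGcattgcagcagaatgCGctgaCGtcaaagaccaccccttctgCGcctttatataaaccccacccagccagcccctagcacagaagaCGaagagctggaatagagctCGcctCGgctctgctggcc
The Ppp1r9a window shown held 48 CpG, a number reached by 1.22% of the 32851 promoters in the RefSeq table, and the other Ppp1r9a window 10, reached by 43.5%. The Ndn window held 11 CpG, the Meg3 window shown 13 and the other Meg3 window 1. Over all 45 windows found for 29 of the 34 genes the median was 13 CpG, beside 7 over all promoters. The letters TGCCGC, the core of the site bound by the imprint-keeping factor ZFP57, were searched on both strands and stood in 11 of these 45 windows, which is 24.4%, beside 11.6% of all promoters. Some windows of the same gene overlap, as for Mest and Gnas, and are not independent. The letters hold a CpG, and the shares were not compared at equal CpG number. The Meg3 window shown held 1 match, and the other Meg3 window, both Ppp1r9a windows and the Ndn window none. Methylation was not measured in these libraries.

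Reads counted on genes numbered 93850256 to 122658636 per library in GMP and 29533371 to 30437981 in LSK. Values are CPM, the share of a library's reads that fell on a gene, scaled to a common total with TMM (trimmed mean of M-values) library sizes set within each population. Dnmt3a itself had 44.7, 57.4 and 17.7 CPM in GMP KO and 127 and 99.0 CPM in GMP CTRL. In LSK the CTRL libraries had 169 and 168 CPM and the KO libraries 57.8 to 65.5 CPM. KO libraries were below CTRL libraries in both populations, and the fall in LSK passed edgeR's quasi-likelihood test (log2 fold change -1.43 ± 0.08 SE, adjusted p = 1.06e-04), while the difference in GMP had an adjusted p of 0.30. The description of GMP KO-352 refers to LSK data, against its title, which was followed. Its 10 GMP markers summed to 19530 CPM, against 2332 to 2995 CPM in LSK libraries. Its 10 LSK markers summed to 635 CPM, against 2562 to 3118 CPM in LSK libraries, so its marker levels were those of GMP. All 10 defining LSK markers, such as Ly6a, Hlf and Mecom, were higher in LSK and all 10 GMP markers, such as Mpo and Elane, higher in GMP among CTRL libraries by edgeR at an adjusted p under 0.05. Counts of Xist and Y-linked genes marked every GMP library as male, LSK CTRL-1326 and KO-1327 as male and the other 3 LSK libraries as female. Reads outside annotated genes made 8.5% of GMP CTRL-346, 10.25% of KO-352, 14.17% of CTRL-350, 15.51% of KO-178 and 16.05% of KO-179.

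The level of imprinted genes in blood progenitors was asked first. In GMP 9 of the 32 genes averaged at least 1 CPM and 6 at least 10 CPM. In LSK 18 of 34 averaged at least 1 CPM and 9 at least 10 CPM. Usp29, Zim1 and Magel2 had 0 reads in all 10 libraries. Dcn, which encodes the matrix protein decorin, had 12 reads in GMP CTRL-350, 1 read in LSK KO-1327 and 0 in the other 8 libraries. Per kilobase of exon, the order of mean levels in LSK CTRL began with Impact at 9.71 CPM per kb, an inhibitor of the stress kinase GCN2. Grb10, an adaptor that restrains insulin and growth factor signals, followed at 8.02. Igf2r, the receptor that clears IGF2, had 7.68, and Ppp1r9a, the actin-binding scaffold neurabin 1 that targets protein phosphatase 1, had 6.59 CPM per kb. Slc22a18, a membrane transporter (3.38), and Peg12, a GSK3-binding protein of the FRAT family (3.36), came next. The 93092-base non-coding RNA Kcnq1ot1 (2.17) and the splicing factor Zrsr1 (2.17) were level per kb. In CPM the 2 CTRL libraries of Grb10 (64.5 and 81.4) enclosed both of Igf2r (67.8 and 75.2), so these neighbours did not differ beyond their spread. In GMP CTRL the order began with Commd1, a regulator of copper transport and NF-kappaB, at 7.25 CPM per kb. Gnas, which encodes the stimulatory G protein subunit, had 6.04, Grb10 4.72, Impact 4.39, Peg12 2.28, Zrsr1 1.91, Igf2r 1.46, Slc22a18 0.682 and Ppp1r9a 0.497 CPM per kb. Commd1 and Gnas thus stood first in GMP, and Impact, Grb10 and Igf2r first in LSK. Genes of the classical growth loci were near the detection limit: Igf2, a fetal growth factor, had at most 2 reads in any GMP library and 4 to 16 in LSK libraries.

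**Figure D1:**
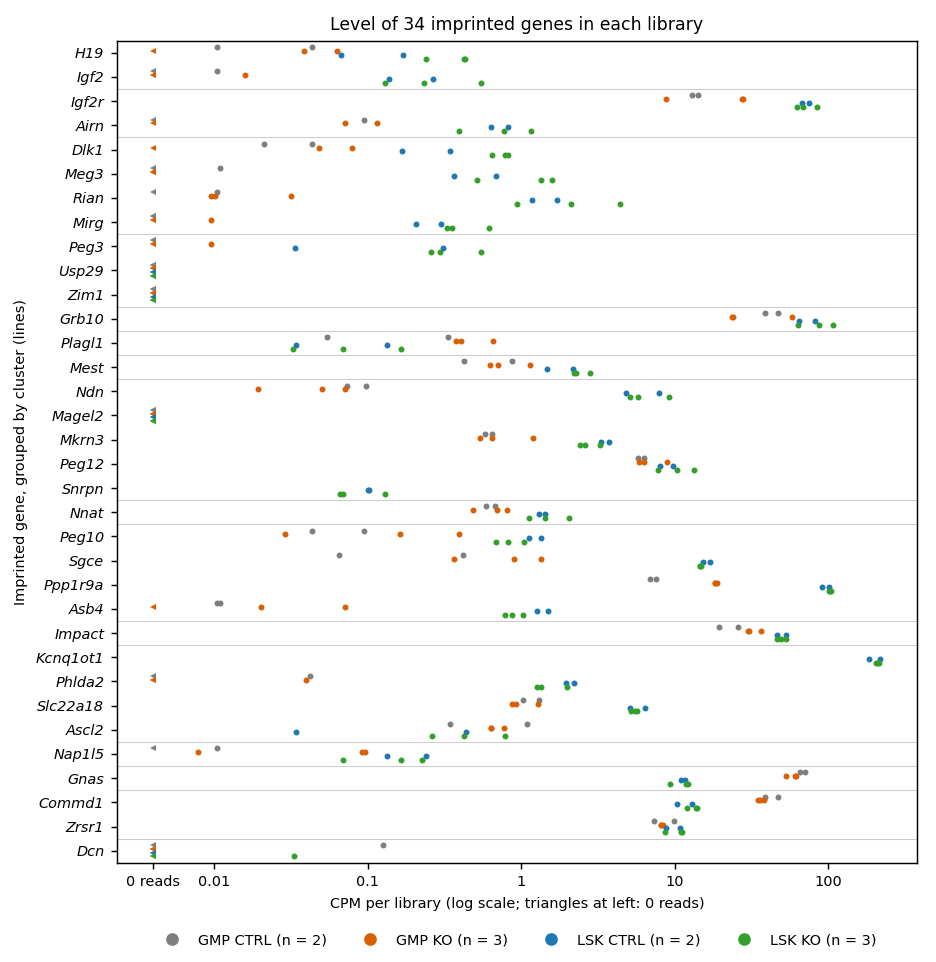
Level of the 34 imprinted genes in each of the 10 libraries, in CPM on a log scale with triangles for libraries with 0 reads, and lines between clusters. Ppp1r9a in GMP shows 3 KO libraries at 18.4 to 18.8 CPM to the right of 2 CTRL libraries at 6.85 and 7.59, while Gnas and Commd1 have all GMP libraries to the right of all LSK libraries.

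The question of the GMP comparison was which imprinted genes differed between KO and CTRL in committed myeloid progenitors. Of the 34 genes, 16 passed the filter on low counts in GMP. None was called at an adjusted p under 0.05 by edgeR, 2 had an unadjusted p under 0.05 (Ppp1r9a and Impact; 13.8% of all genes tested had), and 6 of all 17290 genes tested were called, which is 0.0347%. DESeq2, run on the same counts as an alternative, called 1 of the 16, Ppp1r9a, among 703 genes in all. A total of 10 of the 16 had a positive and 6 a negative log2 fold change, with a median of 0.28 beside 0.01 over all genes tested. KO and CTRL libraries did not overlap in 5 of the 16, with KO higher in 3 (18.8%, beside 16.5% of all genes tested) and lower in 2 (beside 15.1%).

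Ppp1r9a stood at 18.4, 18.4 and 18.8 CPM in GMP KO, and at 6.85 and 7.59 CPM in CTRL. The 3 KO libraries were close to each other and well above both CTRL libraries. Its mean was 18.5 ± 0.257 CPM (SD, n = 3) in KO and 7.22 ± 0.526 CPM (SD, n = 2) in CTRL, and the log2 fold change was 1.36 ± 0.15 (SE), a 2.56-fold higher fitted level. It had the smallest p of the imprinted genes (3.95e-05), but edgeR's adjusted p over all genes was 0.076. The log2 fold change ranged from 1.29 to 1.42 over 13 alternative fits, and the gene was called in 5 of them. The adjusted p was 0.016 without the filter on low counts, 0.012 with a term for reads outside genes, 1.89e-04 in the fit of all 10 libraries and 0.038 without KO-352. It was 0.66 without KO-178 and 0.45 (log2 fold change 1.39) when KO-352 alone was set against both CTRL libraries. The gene lies on chromosome 6, at 4902917 to 5165661 (GRCm38), and is known as imprinted mainly in extra-embryonic tissues.

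In the same GMP libraries markers of mast cells, basophils and eosinophils also differed between genotypes. Their summed level over 9 genes was 877 to 1128 CPM in KO and 1488 to 3901 CPM in CTRL libraries, all 9 had a negative log2 fold change, Hdc alone passed edgeR's test (-1.05 ± 0.10 SE, adjusted p = 0.041), and none was at 0 in any library. T and NK cell markers summed to 247 to 314 CPM in KO and 365 to 450 CPM in CTRL, most of it Nkg7 (239 to 450 CPM), with Cd3e at 0 in 4 of 5 libraries. Of the 7 of these markers tested, 5 had a positive and 2 a negative log2 fold change, none past edgeR's test. Summed mature neutrophil markers overlapped between groups, at 577 to 4389 CPM in KO and 934 to 2244 CPM in CTRL. All 8 had a positive log2 fold change (median 0.93), none past edgeR's test. The part of these cells in the Ppp1r9a difference was not tested, and in bulk libraries more cells of a type and more RNA per cell cannot be told apart.

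On chromosome 6 none of the neighbours of Ppp1r9a passed the test in GMP. Sgce, which encodes epsilon-sarcoglycan, stood at 0.899, 1.34 and 0.364 CPM in GMP KO and at 0.0647 and 0.418 CPM in CTRL. The groups overlapped, since KO-352 lay below CTRL-350 (log2 fold change 1.84 ± 0.86 SE, edgeR adjusted p = 0.39). Peg10, a retrotransposon-derived gene needed in the placenta, ranged from 0.0287 to 0.393 CPM in KO and from 0.0432 to 0.094 CPM in CTRL (1.50 ± 1.07 SE, edgeR adjusted p = 0.54). Asb4, an ankyrin repeat protein, had 0 to 9 reads per GMP library and was not tested. The groups of Casd1 and Pon3 overlapped, and those of Pon2 did not, at 62.6 to 64.3 CPM in KO and 52.0 and 55.6 CPM in CTRL. Of these genes, which lie between and beside the imprinted ones, Casd1 (-0.14 ± 0.14), Pon3 (0.04 ± 0.14) and Pon2 (0.23 ± 0.10) had edgeR adjusted p of 0.66, 0.92 and 0.35. In LSK none of these genes passed the test between genotypes.

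**Figure D2:**
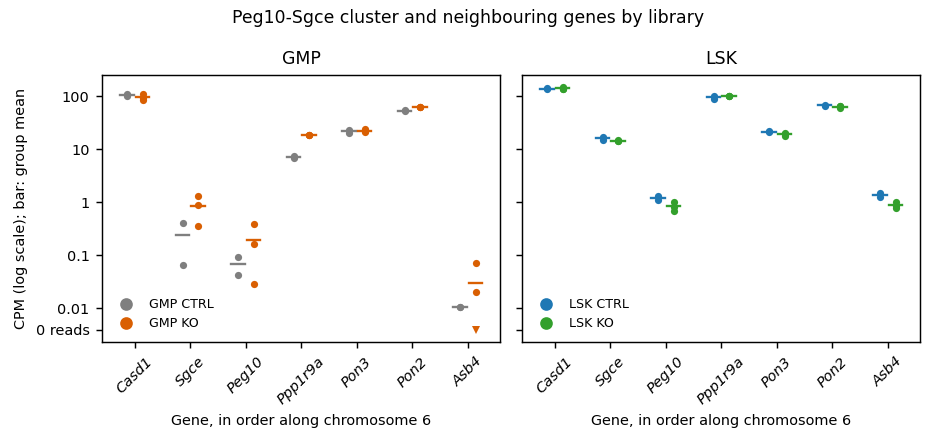
Genes of the Peg10-Sgce cluster and their neighbours in order along chromosome 6, with points for libraries and bars for group means in CPM on a log scale, GMP at left and LSK at right. In GMP the KO points of Ppp1r9a (18.4 to 18.8 CPM) lie above the CTRL points (6.85 and 7.59 CPM), and the points of the flanking Pon2 lie at 62.6 to 64.3 CPM in KO and 52.0 and 55.6 CPM in CTRL.

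Among the remaining GMP genes, Impact and Plagl1 had KO libraries above CTRL libraries and Commd1 and Gnas below, none past the adjusted threshold. Impact stood at 30.3, 36.6 and 29.9 CPM in KO and at 25.7 and 19.4 CPM in CTRL (log2 fold change 0.52 ± 0.17 SE, edgeR adjusted p = 0.32). Plagl1, a zinc finger transcription factor that regulates other imprinted genes, stood at 0.402, 0.377 and 0.657 CPM in KO and 0.0539 and 0.334 CPM in CTRL. The KO libraries of Plagl1 lay just above CTRL-350 and far above CTRL-346 (1.29 ± 0.76 SE, edgeR adjusted p = 0.47). Commd1 stood at 35.9, 35.0 and 38.0 CPM in KO and 47.3 and 38.8 CPM in CTRL, so that KO-352 and CTRL-350 nearly met (-0.25 ± 0.12 SE, edgeR adjusted p = 0.41). Gnas stood at 61.5, 53.3 and 60.7 CPM in KO and 70.1 and 65.0 CPM in CTRL (-0.21 ± 0.11 SE, edgeR adjusted p = 0.43).

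For 2 abundant genes the KO libraries differed among themselves more than the groups did. Igf2r stood at 27.9 and 27.5 CPM in GMP KO-178 and KO-179 but at 8.77 CPM in KO-352, below both CTRL libraries at 12.9 and 14.2 CPM. Its log2 fold change was 0.66 ± 0.46 (SE) with an edgeR adjusted p of 0.54. Without KO-352 it was 1.03 with an adjusted p of 0.049, and with KO-352 alone against both CTRL libraries it was -0.62, so the direction rested on which KO library was used. Grb10 stood at 58.0 CPM in KO-178 and at 24.1 and 23.5 CPM in KO-179 and KO-352, around the CTRL values of 47.3 and 38.6 CPM (-0.29 ± 0.40 SE, edgeR adjusted p = 0.76). KO-352 and CTRL-346 also had the lowest shares of reads outside genes in GMP. With that share as a term the log2 fold change of Igf2r was 0.01 ± 0.37 (SE, edgeR adjusted p = 0.99). The part of that share in the spread of Igf2r was not tested. Mest, Mkrn3, Peg12, Nnat, Zrsr1, Slc22a18 and Ascl2 had log2 fold changes between -0.18 and 0.36 with overlapping groups. Of the paternal genes 8 of the 9 tested had a positive value in GMP and 8 of 12 in LSK, and of the maternal genes 2 of 7 in GMP and 9 of 13 in LSK, beside 51.2% and 50.8% of all genes tested. Of these 16 GMP genes 8 turned sign in at least 1 alternative fit.

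**Figure D3:**
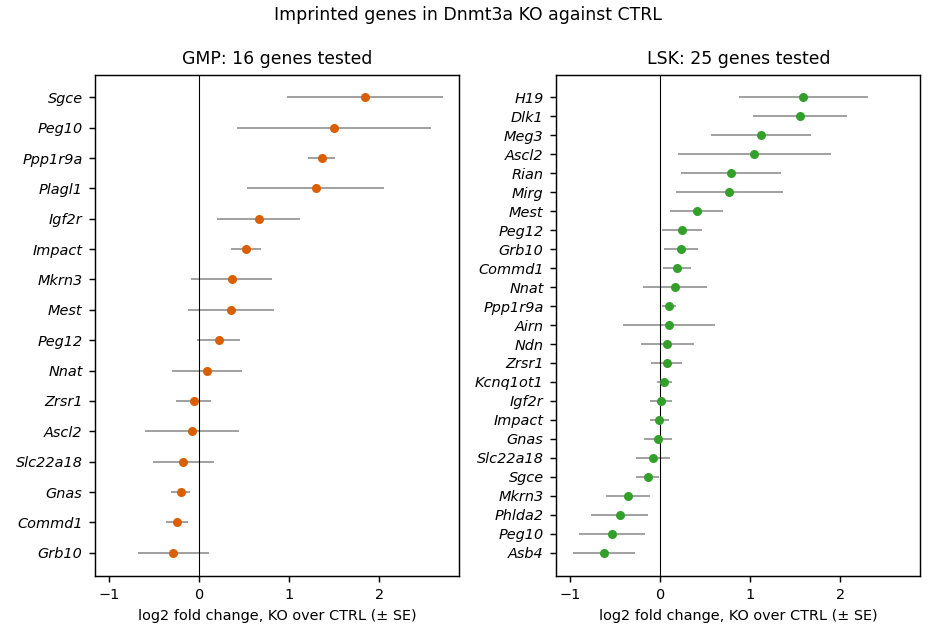
Log2 fold change of KO over CTRL with its SE for the 16 imprinted genes tested in GMP and the 25 tested in LSK. In GMP the bar of Ppp1r9a (1.36 ± 0.15) is narrow beside those of Sgce (1.84 ± 0.86) and Peg10 (1.50 ± 1.07), and in LSK Dlk1 and H19 lie farthest to the right.

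The same question was asked in LSK, the population that holds the stem cells. There 25 of the 34 genes passed the filter. None was called by edgeR (all adjusted p = 0.9998), 1 had an unadjusted p under 0.05 (Dlk1; 2.83% of all genes tested had), and 4 of all 17238 genes tested were called, which is 0.0232%. DESeq2 called none of the 25. A total of 17 had a positive and 8 a negative log2 fold change (median 0.10, beside 0.00 over all genes, where 50.8% were positive). KO and CTRL libraries did not overlap in 9 of 25. KO was higher in 5 (Dlk1, H19, Mirg, Mest and Ppp1r9a), which is 20.0% beside 7.56% of all genes tested, and lower in 4 (Asb4, Mkrn3, Peg10 and Sgce) beside 7.26%.

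Dlk1, a transmembrane relative of the Notch ligands, stood at 0.823, 0.786 and 0.647 CPM in LSK KO and at 0.341 and 0.167 CPM in CTRL. All 3 KO libraries lay above both CTRL libraries, on 20 to 25 reads against 10 and 5 reads. The log2 fold change was 1.55 ± 0.52 (SE) with an unadjusted edgeR p of 0.015. H19, a maternal non-coding RNA, stood at 0.428, 0.239 and 0.420 CPM in KO and 0.170 and 0.0667 CPM in CTRL, on 7 to 13 against 5 and 2 reads (1.59 ± 0.72 SE, edgeR adjusted p = 0.9998). Igf2, its paternal partner, had 0.230, 0.547 and 0.129 CPM in KO and 0.136 and 0.267 CPM in CTRL, with the lowest value in KO-1334, and did not pass the filter.

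The maternal non-coding RNAs that follow Dlk1 on chromosome 12 spread widely within KO. Meg3 stood at 1.58, 1.33 and 0.517 CPM in KO and at 0.682 and 0.367 CPM in CTRL (1.12 ± 0.56 SE, edgeR adjusted p = 0.9998). Rian stood at 2.11, 4.41 and 0.938 CPM in KO and 1.70 and 1.17 CPM in CTRL (0.79 ± 0.56 SE). KO-1334 lay within or below the CTRL range in both genes, and without KO-1333 the log2 fold change of Rian was 0.09. Mirg, a host of microRNAs, stood at 0.329, 0.615 and 0.356 CPM in KO and 0.204 and 0.30 CPM in CTRL, with the groups just apart (0.77 ± 0.59 SE). KO-1333 had the highest level of the 5 LSK libraries in 13 of the 30 genes with at least 10 reads over them, among them Igf2, Rian, Mirg, Peg3 and Ndn.

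**Figure D4:**
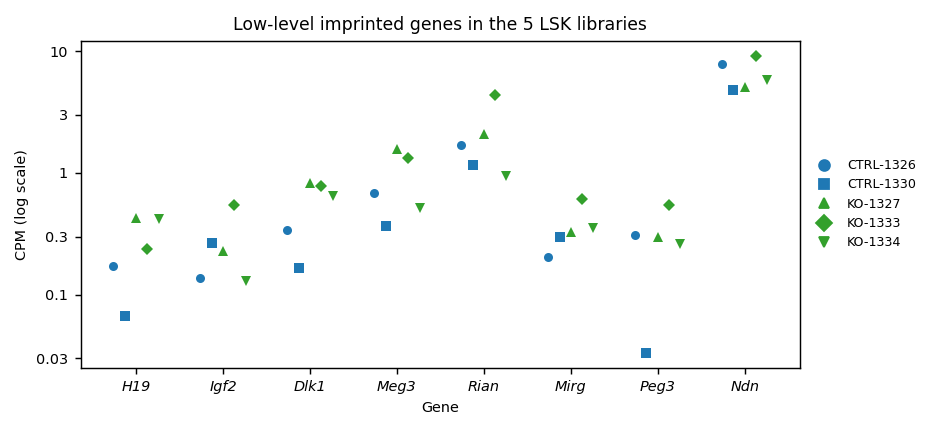
Level of 8 low-level imprinted genes in the 5 LSK libraries, in CPM on a log scale, with CTRL in blue and KO in green and a marker shape for each library. The 3 KO libraries of Dlk1 and H19 lie above both CTRL libraries, whereas KO-1334 lies below both CTRL libraries for Igf2 and Rian.

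Several of these genes are also expressed by stromal cells, so stromal markers were read in the same libraries. Their summed level over 15 genes was 145 and 124 CPM in LSK CTRL and 127, 90.5 and 85.5 CPM in KO, most of it Pdgfrb (46.8 to 103 CPM). The sums overlapped between genotypes, since KO-1327 lay above CTRL-1330, and all 9 of these markers that were tested had a negative log2 fold change in KO. In LSK libraries Col1a2 stood at 10.2 to 38.4 CPM, Bgn at 5.97 to 13.3, Col5a1 at 6.51 to 9.27 and Postn at 1.87 to 5.01. Lum was at 0 in all 10 libraries. Dcn, which is not among the 15 markers, was at 0 in 4 of the 5 LSK libraries. The part of stromal cells in the levels of Dlk1, H19 and Meg3 was not tested. The sexes were mixed within both LSK genotypes. With sex as a term no imprinted gene was called.

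In the Peg10-Sgce cluster of LSK the lower KO values were small. Asb4 stood at 1.02, 0.786 and 0.873 CPM in KO and at 1.50 and 1.27 CPM in CTRL (-0.63 ± 0.34 SE, edgeR adjusted p = 0.9998). Peg10 stood at 0.823, 0.684 and 1.03 CPM in KO and 1.12 and 1.33 CPM in CTRL (-0.53 ± 0.37 SE). Sgce stood at 14.6, 14.5 and 14.9 CPM in KO and 17.1 and 15.3 CPM in CTRL (-0.14 ± 0.12 SE). Ppp1r9a in the same cluster stood at 103, 100.9 and 104 CPM in KO and 90.8 and 100.7 CPM in CTRL (0.10 ± 0.08 SE), with KO-1333 and CTRL-1330 nearly equal. Mkrn3, a ring finger protein of the Snrpn-Ndn region, stood at 3.26, 2.39 and 2.59 CPM in KO and 3.31 and 3.73 CPM in CTRL (-0.36 ± 0.25 SE). Mest, a protein of the hydrolase family, stood at 2.21, 2.26 and 2.78 CPM in KO and 2.18 and 1.47 CPM in CTRL, so that KO-1327 and CTRL-1326 nearly met (0.40 ± 0.30 SE).

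The abundant imprinted genes of LSK showed log2 fold changes near 0 between genotypes. Kcnq1ot1, the paternal antisense RNA that silences its neighbours, stood at 204, 213 and 209 CPM in KO and 185 and 219 CPM in CTRL (0.05 ± 0.09 SE). Igf2r stood at 62.8, 84.9 and 67.9 CPM in KO and 67.8 and 75.2 CPM in CTRL (0.01 ± 0.13 SE), and Impact differed by -0.01 ± 0.11 (SE). Grb10 stood at 63.5, 106.8 and 86.9 CPM in KO and 64.5 and 81.4 CPM in CTRL (0.23 ± 0.19 SE), with KO-1333 the highest. Necdin, encoded by Ndn and known as a growth suppressor in stem cells, stood at 5.07, 9.23 and 5.79 CPM in KO and 7.87 and 4.80 CPM in CTRL (0.08 ± 0.30 SE). The groups of Kcnq1ot1, Igf2r, Grb10 and Ndn overlapped.

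Whether KO differed from CTRL alike in both populations was tested as a difference of the KO effects, LSK minus GMP, in 1 fit of all 10 libraries. For Ppp1r9a the difference was -1.28 ± 0.13 (SE, log2) with an edgeR p of 1.10e-06 and an adjusted p of 0.0104. It was the only imprinted gene called of 28 tested, beside 0.0265% of all 18836 genes. In CPM the KO mean was 18.5 against 7.22 in GMP and 103 against 95.7 in LSK, and KO libraries lay above CTRL libraries in both. The test compares log2 fold changes, 1.36 in GMP and 0.10 in LSK when fitted within each population, from unlike CTRL levels. Population coincides with the count table, its annotation and the depth, and in part with sex. The call was kept with DESeq2, limma-voom, RLE scaling and no filter. The adjusted p ranged from 0.00495 to 0.10 when each library was left out, and was 0.054 without GMP CTRL-346, 0.056 without LSK CTRL-1326, 0.10 without LSK CTRL-1330 and 0.072 without LSK KO-1334. Igf2r was called as well without GMP KO-352 (-1.03, adjusted p = 0.033).

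LSK and GMP were then compared within each genotype. The population coincides with the count table, its annotation and the depth, so part of any difference may lie there and cannot be told apart. Sex coincides with it in part. All GMP libraries were male, whereas LSK CTRL-1330, KO-1333 and KO-1334 were female, and no term for sex was fitted between populations. Among CTRL libraries 17 of the 28 genes tested were higher in LSK (28.2% of all genes were) and 2 lower (27.3%) at an edgeR adjusted p under 0.05. Among KO libraries 18 were higher (beside 30.7%) and 3 lower (beside 30.1%). Of the 28, 12 passed the filter only with the LSK libraries and had to be higher there (H19, Igf2, Airn, Dlk1, Meg3, Rian, Mirg, Peg3, Ndn, Asb4, Phlda2 and Nap1l5). Among the 16 genes that passed in GMP alone, 7 were higher and 2 lower between CTRL libraries, with a median log2 fold change of 0.76 beside 0.12 over all genes, and 7 were higher and 3 lower between KO libraries. A total of 14 genes were higher in LSK in both genotypes, 82.4% of the CTRL and 77.8% of the KO list, beside 83.0% and 76.1% for all genes tested, and 9 of the 14 had passed the filter only with the LSK libraries. Impact, Nap1l5 and Peg10 passed in CTRL and Dlk1, Grb10, H19 and Mest in KO, and the difference between genotypes passed the test for none of these 7. The calls of Igf2, Airn, Peg3 and Nap1l5 in CTRL, and of Airn, Grb10 and Mest in KO, were lost when single libraries were left out. Igf2 and Peg3 had an adjusted p in only 12, and Nap1l5 in only 10, of the 15 alternative fits in each genotype. They could not be called in the others. Fold changes between populations are on the scale of the fit of all 10 libraries, where LSK lies lower against GMP than in the CPM values by 0.378 on the log2 scale in CTRL and 0.398 in KO. Without TMM factors the median over all genes moved from 0.12 to 0.53 in CTRL and from 0.08 to 0.46 in KO. The genes called between CTRL libraries then split into 7911 higher and 2886 lower in LSK, against 5303 and 5139 with TMM, and those between KO libraries into 8426 and 3488, against 5788 and 5678. Every imprinted gene called with TMM was also called, in its direction, without it, and 3 more were called higher in each genotype.

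Ppp1r9a was among the genes that differed most surely. It stood at 90.8 to 104 CPM in the 5 LSK libraries and at 6.85 to 18.8 CPM in the 5 GMP libraries, with log2 fold changes of 3.35 ± 0.11 (SE) between CTRL and 2.07 ± 0.08 between KO libraries (edgeR adjusted p = 3.00e-08 and 3.57e-08). Its fold was thus smaller between KO libraries by the amount of the difference tested above. Sgce stood at 14.5 to 17.1 CPM in LSK and 0.0647 to 1.34 CPM in GMP, with log2 fold changes of 5.66 ± 0.74 between CTRL and 3.67 ± 0.53 between KO libraries (edgeR adjusted p = 1.15e-04 and 1.67e-04). Peg10 passed in CTRL (3.74 ± 0.93 SE, edgeR adjusted p = 0.00627) and had an adjusted p of 0.052 in KO.

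Of Ndn, Mkrn3 and Peg12 in the Snrpn-Ndn region, Ndn had the largest population difference. It stood at 4.80 to 9.23 CPM in LSK, on 144 to 270 reads, and at 0.0191 to 0.0971 CPM in GMP, on 2 to 9 reads. Its log2 fold change was 5.82 ± 0.57 (SE) between CTRL and 6.69 ± 0.49 between KO libraries (edgeR adjusted p = 1.75e-05 and 1.42e-06). Ndn passed the filter only with the LSK libraries, so the filter fixed its direction and these p-values are no support for it. Mkrn3, its neighbour, was 2.39 to 3.73 CPM in LSK and 0.536 to 1.19 CPM in GMP (2.13 ± 0.42 in CTRL, 1.398 ± 0.33 in KO, edgeR adjusted p = 0.00154 and 0.00416). Peg12, in the same region, was 7.77 to 13.4 CPM in LSK and 5.80 to 8.90 CPM in GMP, and its ranges overlapped (0.18 ± 0.29 in CTRL, edgeR adjusted p = 0.61). Magel2 had 0 reads throughout. Genes of 1 region thus ranged from no detectable reads to levels shared by both populations.

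The Dlk1-Meg3 RNAs were nearly absent from GMP counts in spite of the greater depth there. Meg3 had 1 read over the 5 GMP libraries and 11 to 48 reads in each LSK library. Between KO libraries LSK had 103 reads against 0, and between CTRL libraries the ratio at the joint scale was 75.7 with a 95% exact counting interval of 12.6 to 3086, the 1 GMP read lying in CTRL-346. Rian had 7 reads over the GMP libraries and 29 to 129 in each LSK library, with a CTRL ratio of 208 (36.3 to 8295) on 1 GMP read in CTRL-350. Mirg had 1 read over all GMP libraries and 6 to 18 in each LSK library. Dlk1 had 0 to 10 reads per GMP library and 5 to 25 per LSK library (3.66 ± 0.79 SE in KO, edgeR adjusted p = 0.00225, and 2.55 ± 1.04 in CTRL, adjusted p = 0.059). These intervals cover counting error only. Meg3, Rian, Mirg and Dlk1 passed the filter only with the LSK libraries, so the filter fixed their direction and the p-values and ratios are no support for it.

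Of the low-level genes of other loci, Peg3, Igf2, Asb4, Phlda2 and Airn are among those whose direction the filter fixed. Peg3, a zinc finger protein, had 1 read over the GMP libraries and 1 to 16 in each LSK library, with 9 reads in LSK CTRL-1326 and 1 in CTRL-1330. Igf2 had 12 reads over the LSK CTRL libraries against 1 in GMP CTRL-350. Asb4 had a ratio of 100.1 (26.9 to 841) between CTRL libraries, on 82 reads against 1 in each of the GMP CTRL libraries. Phlda2, known for limiting placental growth, had 39 to 65 reads in each LSK library and 0 to 5 in each GMP library (6.13 ± 1.09 SE in CTRL, edgeR adjusted p = 8.74e-04). Its neighbour Slc22a18 stood at 5.10 to 6.37 CPM in LSK and 0.870 to 1.29 CPM in GMP (1.93 ± 0.30 SE in CTRL, edgeR adjusted p = 3.80e-04). Airn, the antisense RNA that silences paternal Igf2r, had 12 to 34 reads in LSK and 0 to 12 in GMP libraries, and Igf2r itself was higher in LSK (2.02 ± 0.43 SE in CTRL, edgeR adjusted p = 0.0025).

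Gnas and Commd1 were the members lower in LSK in both genotypes. Gnas stood at 9.30 to 12.1 CPM in LSK and 53.3 to 70.1 CPM in GMP, and its log2 fold change was -2.96 ± 0.14 (SE) between CTRL and -2.80 ± 0.11 between KO libraries (edgeR adjusted p = 2.31e-07 and 4.05e-08). Commd1 stood at 10.3 to 13.9 CPM in LSK and 35.0 to 47.3 CPM in GMP (-2.26 ± 0.15 between CTRL and -1.85 ± 0.12 between KO libraries, edgeR adjusted p = 1.74e-06 and 7.23e-07). Zrsr1, which lies within Commd1 on the opposite strand, stood at 8.67 to 11.1 CPM in LSK and 7.30 to 9.85 CPM in GMP and did not pass the test (-0.20 ± 0.21 in CTRL on the scale of the joint fit, edgeR adjusted p = 0.44, and 0.21 ± 0.22 without TMM factors). The exons of Gnas overlap Gm20721 and Nespas on the other strand, and those of Commd1 overlap Zrsr1 and Gm28048. Gm20721 had 147 to 182 reads in GMP and 0 to 2 in LSK libraries, and Gm28048 had 5 to 19 in GMP and 0 in LSK. The sources used here do not give the strand setting of the counting. Reads of overlapping genes may have been assigned differently in the separate tables. Plagl1 was lower in LSK between KO libraries (-2.80 ± 0.81 SE, edgeR adjusted p = 0.012) and had -1.58 ± 1.02 between CTRL libraries. Ascl2, a transcription factor needed in the placenta, had -1.98 ± 0.87 in CTRL and -0.86 ± 0.66 in KO, neither past the test.

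**Figure D5:**
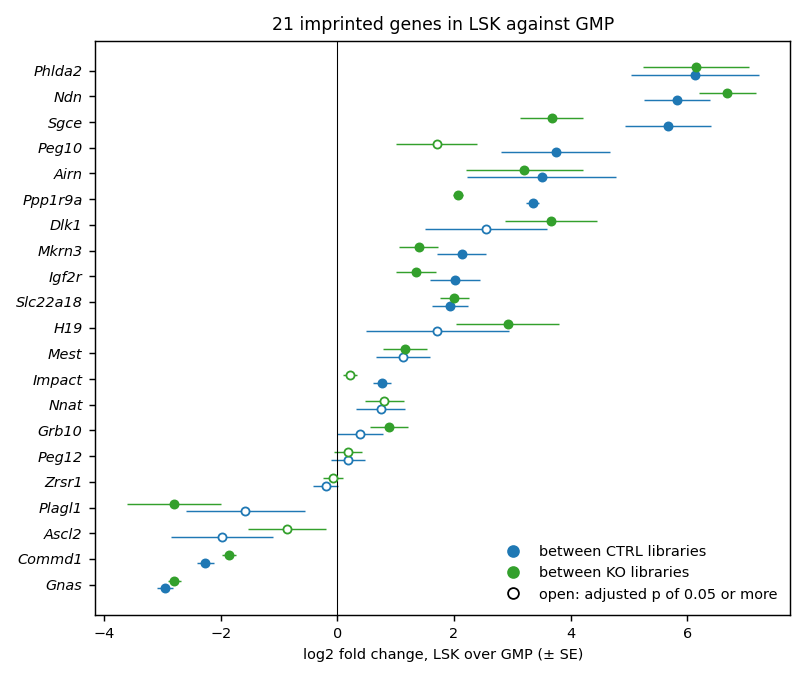
Log2 fold change of LSK over GMP with its SE for the 21 imprinted genes with more than 3 reads in each group, between CTRL libraries in blue and between KO libraries in green, with open symbols for an adjusted p of 0.05 or more. Ppp1r9a has the blue point at 3.35 and the green point at 2.07, Ndn is at 5.82 and 6.69, and Gnas and Commd1 lie to the left of 0 in both genotypes. H19, Airn, Dlk1, Ndn and Phlda2 passed the filter only with the LSK libraries.

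Markers of other cell types also differed between populations. Summed stromal markers were 85.5 to 145 CPM in LSK and 17.9 to 41.8 CPM in GMP libraries, endothelial markers 60.9 to 87.5 and 14.5 to 20.0 CPM, erythroid markers 242 to 312 and 3.92 to 51.3 CPM, and megakaryocyte markers 277 to 412 and 33.8 to 104 CPM. Of 12 stromal markers tested between CTRL libraries, 11 had a positive log2 fold change and 1 a negative. Col1a2 stood at 10.2 to 38.4 CPM in LSK and 0.0108 to 0.574 in GMP, and Bgn at 5.97 to 13.3 and 0.0108 to 0.236. Lum was at 0 in all libraries, and Col6a2 at 0 in 3 LSK and 4 GMP libraries. The largest single genes of these sums in LSK were Pdgfrb (46.8 to 103 CPM), Egfl7 (50.1 to 79.6), Car1 (up to 240) and Itga2b (135 to 227). B cell markers were also higher in LSK (59.2 to 122 against 33.3 to 42.7 CPM). Other sums were higher in GMP. Mast cell, basophil and eosinophil markers had 877 to 3901 CPM in GMP and 127 to 188 in LSK. T and NK cell markers had 247 to 450 and 101 to 143 CPM, and mature neutrophil markers 577 to 4389 and 168 to 294 CPM. The part of any of these cell types in the differences of imprinted genes between populations was not tested. More cells of a type and more RNA per cell cannot be told apart in these sums.

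Kcnq1ot1 could not be compared between populations. Its span of chromosome 7, at 143203458 to 143296549 (GRCm38), holds 4 annotated small RNAs on the opposite strand (Gm27395, Gm27389, Gm27803 and Gm27539). Together these had 477, 490 and 246 reads in GMP KO, 208 and 302 in CTRL, and 0 in all LSK libraries, where Kcnq1ot1 itself was counted. None of the 4 passed edgeR's test between genotypes in GMP. Kcnq1ot1 was not matched in GMP, and whether the reads of the 4 small RNAs there came from it was not tested.

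A wider list of 50 other imprinted genes, chosen with earlier results of these data known, was read in the same fits. In GMP 31 were tested and none was called by edgeR, with 16 positive and 15 negative values. Of these 31, 5 had an unadjusted p under 0.05, beside 13.8% of all genes tested. The smallest p were those of Nespas, the antisense RNA of the Gnas locus, and Trappc9. Nespas stood at 1.31, 1.01 and 0.586 CPM in KO and at 0.129 and 0.251 CPM in CTRL (2.34 ± 0.55 SE, adjusted p = 0.26). All KO libraries of Nespas lay above both CTRL libraries. Trappc9 stood at 35.7, 31.3 and 36.7 CPM in KO and 50.3 and 44.0 CPM in CTRL (-0.45 ± 0.12 SE, adjusted p = 0.29). In LSK 33 were tested and none was called, with 14 positive and 19 negative values. None had an unadjusted p under 0.05, beside 2.83% of all genes tested. There Nespas (0.63 ± 0.34 SE) and the cell cycle regulator Rb1 (0.17 ± 0.10 SE) had the smallest p. Between CTRL libraries 11 of the 34 tested were higher in LSK (28.2% of all genes were) and 11 lower (27.3%) at an edgeR adjusted p under 0.05.

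Of 24 genes that write, read, erase or protect DNA methylation, 21 were tested in GMP and none was called by edgeR. An unadjusted p under 0.05 was seen for 2 of the 21, beside 13.8% of all genes tested. These were Dnmt3a and Tet1, the latter with -0.41 ± 0.13 (SE, edgeR adjusted p = 0.31). In LSK 20 were tested and Dnmt3a was the 1 called, with Uhrf1, the partner of DNMT1, next by p (0.18 ± 0.10 SE, adjusted p = 0.9998). Zfp57, the zinc finger protein that protects imprints in the embryo, stood at 4.10 to 6.34 CPM in LSK and 0.0809 to 0.204 CPM in GMP libraries. All LSK libraries were above all GMP libraries (4.67 ± 0.45 SE in CTRL, edgeR adjusted p = 1.54e-05). Zfp57 did not differ between genotypes past the test in GMP (-0.32 ± 0.61 SE, adjusted p = 0.84) or LSK (-0.22 ± 0.21 SE, adjusted p = 0.9998).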

How the data were processed

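Total RNA of sorted cells was sequenced after ribosomal RNA removal with a stranded kit, per the labels' protocols. The raw tables deposited by the authors give a read count for each Ensembl gene ID; STAR, HTSeq 0.5.3p3, DESeq 1.18.0, DESeq2 1.4.5 and the builds mm10 and GRCm38 are named, without roles, in the submitters' processing notes. The deposited normalized tables hold a signal, which equals counts divided by 1 size factor per library and was used as an alternative scaling only. Symbols and coordinates are from GENCODE vM21 (GRCm38); 37607 GMP and 44671 LSK gene IDs matched. Rows naming no gene were left out; reads outside genes made 8.5% to 16.05% of GMP reads.

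Counts were tested with edgeR 4.0.16 in R 4.3.3 (filterByExpr with minimum count 10, TMM, glmQLFit and glmQLFTest, two-sided, Benjamini-Hochberg over all genes tested, threshold 0.05), within each population (3 residual degrees of freedom) and, for comparisons between populations, in a fit of all 10 libraries over the 38086 gene IDs in both tables (6 residual degrees of freedom). SE was taken as the absolute log2 fold change over the root of F. The joint fit held 28 imprinted genes, and CPM was computed within each population. Alternatives were RLE scaling, the deposited size factors, no filter, DESeq2 1.42.0, limma-voom 3.58.1, terms for sex or reads outside genes, and leaving out each library; fits of 3 libraries and fits without TMM factors were added after seeing the data. The edgeR step was run on simulated counts with a fixed dispersion and changes placed only in genes of higher level. That run does not cover genes of low level, such as many of the imprinted genes. Promoter windows are from RefSeq (GRCm38.p6); the single window on chromosome 18 was not used. The imprinted genes and all lists were chosen with earlier results of these data known. Full values are given for genes called in a comparison, the 3 smallest p per direction in GMP and LSK, and the most abundant gene of each locus.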

Additional observations from a re-analysis of the deposited data

Results flagged for a closer look

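The difference of KO from CTRL in Ppp1r9a was unlike between populations by a direct test. The log2 fold change of KO over CTRL in LSK minus that in GMP was -1.28 ± 0.13 (SE, edgeR adjusted p = 0.0104). In GMP the 3 KO libraries (18.4 to 18.8 CPM) lay above the 2 CTRL libraries (6.85 and 7.59 CPM), and in LSK all 5 libraries lay between 90.8 and 104 CPM. The adjusted p was 0.054 without GMP CTRL-346, 0.056 without LSK CTRL-1326, 0.10 without LSK CTRL-1330 and 0.072 without LSK KO-1334. No other imprinted gene was called in this comparison. Within GMP alone Ppp1r9a was not called between KO and CTRL (edgeR adjusted p = 0.076). The Cre transgene was present in KO mice only, so its effect and that of the Dnmt3a deletion cannot be told apart.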

How the results depend on the processing

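In GMP 0 imprinted genes were called, and 1 without the filter on low counts, with DESeq2, in the joint fit of 10 libraries or with reads outside genes as a term; leaving out each library gave 0 to 2. Over all genes the 6 GMP calls became 50, 703, 182 and 203 under these 4 settings, 0 with limma-voom, 3 with CTRL-346, CTRL-350 and KO-352 only, and 1 to 172 on leaving out each library. The 4 LSK calls became 27 without the filter, 20 with DESeq2, 0 in the joint fit, 145 with female libraries only, and 3 to 11 on leaving out each library, and 0 imprinted genes were called in any of these. For the difference of KO effects 1 imprinted gene was called, and 0 to 2 on leaving out each library; over all genes the 5 calls became 38 without the filter, 221 with DESeq2, 2 with limma-voom and 1 to 513 on leaving out each library. The cause of these shifts was not tested.

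Log2 fold changes of KO over CTRL turned sign in at least 1 alternative for 8 of the 16 imprinted genes tested in GMP and 9 of the 25 in LSK, none of them called in the test as reported. Those of genes given with full values follow; the others were Mkrn3, Slc22a18, Ascl2 and Zrsr1 in GMP and Airn, Ndn, Slc22a18 and Zrsr1 in LSK. In GMP Igf2r became -0.62, Peg12 -0.0345 and Nnat -0.36 with CTRL-346, CTRL-350 and KO-352 only, and Nnat -0.0725 with reads outside genes as a term. In LSK Igf2r became -0.00287 with limma-voom and -0.0331 with sex as a term, and Kcnq1ot1 -0.0556 with female libraries only. On leaving out each library the range was -0.0776 to 0.950 for Mest and -0.0803 to 0.267 for Nnat in GMP, and in LSK -0.124 to 0.0984 for Igf2r, -0.0968 to 0.348 for Nnat, -0.106 to 0.0884 for Impact, -0.0694 to 0.169 for Kcnq1ot1 and -0.0901 to 0.0918 for Gnas.

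Between populations 19 imprinted genes were called in CTRL and 21 in KO, 16 to 20 and 18 to 22 on leaving out each library, and 22 and 24 without TMM factors, an alternative chosen after seeing the data. Airn was lost in CTRL without GMP CTRL-346 or any of LSK CTRL-1326, CTRL-1330, KO-1333 and KO-1334 (adjusted p 0.053 to 0.13), and in KO without LSK KO-1333 (0.061). In CTRL Igf2 was lost without GMP CTRL-346 (0.092) or LSK CTRL-1330 (0.10), and without LSK CTRL-1326 Peg3 (0.16) and Nap1l5 (0.10). Igf2 and Peg3 had no adjusted p, and so no call, in some further fits of both genotypes, as did Nap1l5 in CTRL. In KO Grb10 was lost with DESeq2 (0.059) and without GMP KO-179 or KO-352 or any of LSK CTRL-1326, CTRL-1330, KO-1333 and KO-1334 (0.050 to 0.13), and Mest without GMP KO-178 (0.064) or LSK KO-1334 (0.068). No paired analysis was possible because no title number occurs in both groups. The fits with KO-352 alone as KO, or with the female LSK libraries, have 1 library in an arm, assumed to vary like the others. Depth limits genes such as Igf2, H19 and Peg3, with 1 to 16 reads per LSK library.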
